A study of Mus musculus with 12 samples.

Results

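The matrix metalloproteinases (Mmp) and the Adamts proteases were examined as 1 family in the striatum of hemiparkinsonian mice treated with L-DOPA. A gene was a member when its symbol was Mmp or Adamts followed by a number, with a or b allowed after an Mmp number, which gave 42 genes (23 Mmp and 19 Adamts) of the 52169 gene symbols in the transcript table. These genes had 276 transcripts. Each gene was represented by its transcript with the highest mean level.

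The libraries came from female C57BL/6J mice that all carried a unilateral 6-OHDA lesion, a toxin injection into the right medial forebrain bundle that removes the dopamine input of the striatum on that side. All mice had been given desipramine (25 mg/kg) before the toxin to spare noradrenergic neurons. After 2 weeks of recovery the mice received L-DOPA (10 mg/kg) with benserazide (7.5 mg/kg), either once (acute) or daily for 9 days (chronic), and were killed 1 hour after the last dose. RNA from 3 striatal punches was sequenced in 4 groups of 3 libraries: acute unlesioned, acute lesioned, chronic unlesioned and chronic lesioned. The unlesioned side had therefore also been exposed to L-DOPA, and no library of saline-treated mice was analysed here. The labels do not say which libraries came from separate mice, so the p-values below measure the spread between these libraries, which may in part be technical.

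Matrix metalloproteinases are zinc-dependent endopeptidases that cut proteins of the extracellular matrix and the cell surface. Most are secreted or membrane-anchored as inactive proenzymes, are activated by proteases such as furin or plasmin, and are held in check by the tissue inhibitors of metalloproteinases (Timp). Adamts proteases are secreted relatives with thrombospondin repeats, several of which cleave the lecticans aggrecan, brevican, neurocan and versican that build the perineuronal matrix of the brain.

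The total per library ranged from 87695043 to 173116525 counts over all transcripts, and from 18373868 to 36492201 counts over 1 transcript per gene. Reads were counted once for each overlapping transcript, and levels are given as CPM, the counts of a transcript scaled to a common library size by the larger total times the library's TMM factor (0.966 to 1.03). The floor of 3 counts corresponded to 0.0171 to 0.0347 CPM in the different libraries. The summed level of 9 markers of striatal spiny neurons was 1520 to 2245 CPM in all 12 libraries, none of these markers being at or below the floor. Some libraries stood apart in markers of other tissue. In chronic unlesioned replicate 2 the choroid plexus markers summed to 480 CPM, against 3.68 to 11.7 CPM in the other 11 libraries. Blood and neutrophil markers were highest in acute unlesioned replicate 2 (7.32 CPM) and acute lesioned replicate 2 (9.17 CPM). Markers of cortical glutamatergic neurons summed to 1.85 to 2.45 CPM in replicates 2 and 3 of both lesioned groups, to 6.50 CPM in chronic unlesioned replicate 2 and to 13.7 to 43.1 CPM in the other 7 libraries.

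Of the 42 members, 25 were above the floor in every library, 8 in only some libraries and 9 in none. Levels of different genes were compared as CPM per kilobase of transcript, averaged over the 12 libraries. Mmp17 (chr5:130100418-130115029, mm9), a protease held to the membrane by a glycolipid anchor, had the highest level at 8.87 CPM per kilobase (range 6.63 to 11.2). Mmp24 (chr2:155601080-155644102), a membrane-anchored protease enriched in neurons, followed with 2.85 CPM per kilobase (2.48 to 3.23), so that its highest library was below the lowest of Mmp17. Adamts3 (chr5:90102866-90312359), a procollagen N-propeptidase, averaged 2.07 CPM per kilobase (1.30 to 3.91). Adamts4 (chr1:173180552-173190768), a lectican-cleaving protease of oligodendrocytes, averaged 1.75 CPM per kilobase (1.00 to 2.97). Mmp15 (chr8:97876168-97898193), a membrane-anchored protease, averaged 0.909 CPM per kilobase (0.592 to 1.20). The order of these genes differed between groups: the mean of Adamts3 was above that of Mmp24 in the chronic lesioned group (3.32 against 3.17 CPM per kilobase), and that of Adamts4 was above Adamts3 in both acute groups (1.94 against 1.36 and 2.28 against 1.40) and below it in both chronic ones. Over all libraries the ranges of Mmp24, Adamts3 and Adamts4 overlapped, and that of Mmp15 overlapped with that of Adamts4 and with those of Mmp14, Mmp16 and Adamts1, which averaged 0.812, 0.729 and 0.653 CPM per kilobase. The remaining members had lower means, from Adamts10 at 0.520 CPM per kilobase downwards.

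**Figure D1:**
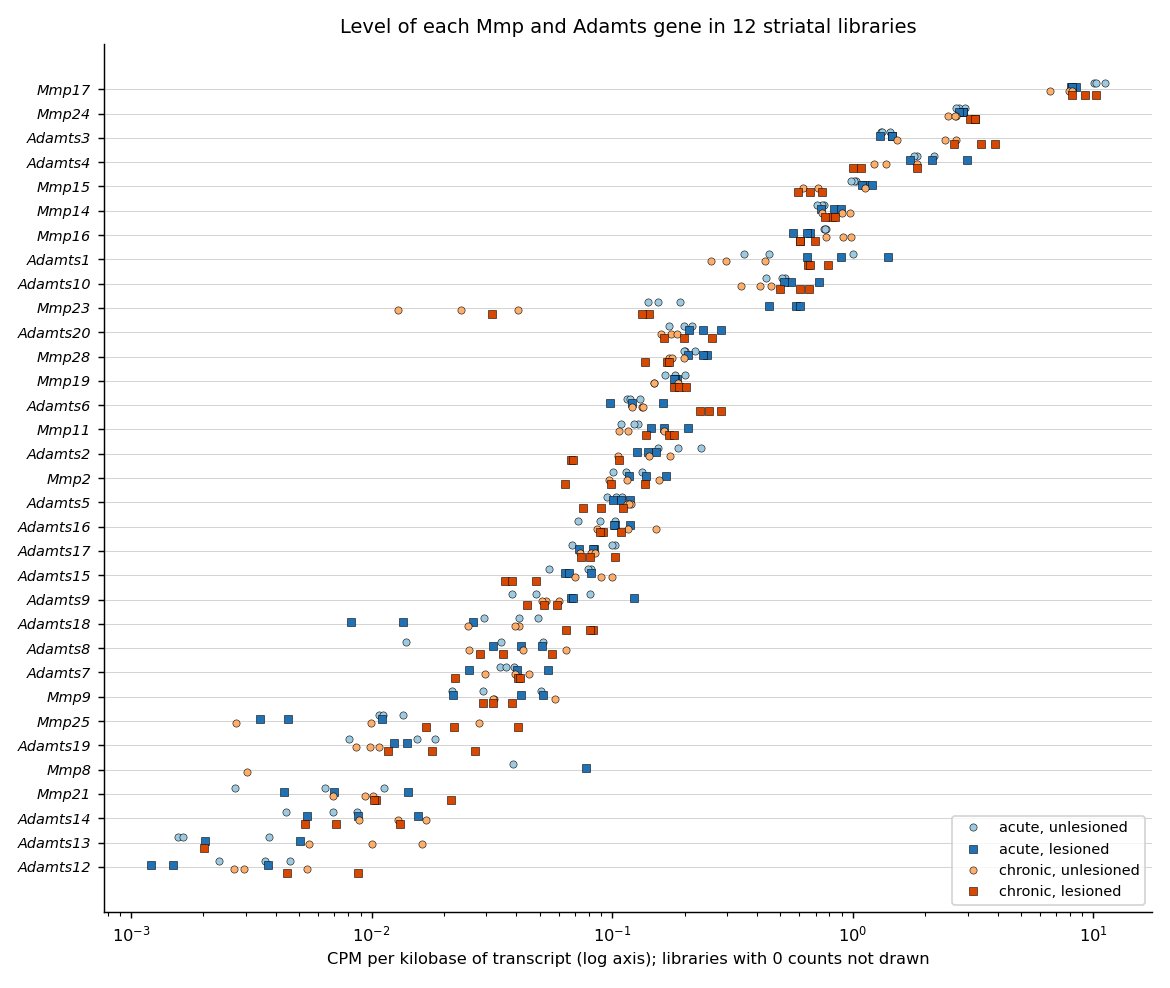
CPM per kilobase of transcript (log axis) of the 33 members above 3 counts in at least 1 library, 1 point per library, coloured by group and ordered by mean level. Mmp17 lies apart at 6.63 to 11.2 CPM per kilobase, and the next member, Mmp24, at 2.48 to 3.23 CPM per kilobase.

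The gelatinases, the secreted proteases most often studied in brain injury, were low. Mmp2 ranged from 0.194 to 0.508 CPM and Mmp9 from 0.0675 to 0.181 CPM, and neither was called in any comparison. The 4 collagenases and the 4 stromelysins, matrilysin and elastase were at the floor in every library, except Mmp8. Mmp8, the neutrophil collagenase, had 12 counts in acute unlesioned replicate 2 and 15 counts in acute lesioned replicate 2, at most 1 count in the other 10 libraries, and was not tested. The same 2 libraries held 30 and 22 counts of the neutrophil gene S100a8, against at most 5 in the others, and the part of blood cells in the Mmp8 counts was not tested.

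Genomic position followed this split. The 10 Mmp genes Mmp13, Mmp12, Mmp1b, Mmp3, Mmp1a, Mmp10, Mmp8, Mmp27, Mmp20 and Mmp7 lie in 1 cluster on chromosome 9 (chr9:7272514-7699580, mm9). In 9 of these 10 no library exceeded the floor, and their highest count in any library was 2. These 9 were the only members with at most 3 counts in every library, and 6 of them had 0 counts in all 12.

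Promoters (250 bases before to 50 after the start) were taken from RefSeq, build GRCm38.p6, and were available for 28 of the 42 members in 31 windows. The AP-1 motif TGANTCA, searched on both strands, occurred in 7.81% of all 32851 promoters of this length. It occurred in 8 of the 31 windows of members, and all 8 belonged to genes of the chromosome 9 cluster: Mmp1a, Mmp1b, Mmp3, Mmp7, Mmp10, Mmp12, Mmp13 and Mmp20. The cAMP response element TGACGTCA was found in 1.79% of all promoters and in none of the members' windows. Its first 5 letters TGACG, which the full element holds on both strands, were found in 20.8% of all promoters and in those of Adamts1, Adamts3, Adamts9 and Adamts12. The promoters of 3 cluster genes that stayed at the floor and of 2 Adamts genes that were called between groups are shown 5′ to 3′ with the motif in capitals. A match describes these letters only.
Mmp13, chr9:7272264-7272563, plus strand: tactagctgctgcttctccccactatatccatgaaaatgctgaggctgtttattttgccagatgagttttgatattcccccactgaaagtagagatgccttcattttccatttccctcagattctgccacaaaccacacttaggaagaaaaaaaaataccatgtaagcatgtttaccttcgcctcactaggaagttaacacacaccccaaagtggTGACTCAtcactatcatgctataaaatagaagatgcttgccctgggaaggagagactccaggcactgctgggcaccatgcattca
Mmp3, chr9:7445572-7445871, plus strand: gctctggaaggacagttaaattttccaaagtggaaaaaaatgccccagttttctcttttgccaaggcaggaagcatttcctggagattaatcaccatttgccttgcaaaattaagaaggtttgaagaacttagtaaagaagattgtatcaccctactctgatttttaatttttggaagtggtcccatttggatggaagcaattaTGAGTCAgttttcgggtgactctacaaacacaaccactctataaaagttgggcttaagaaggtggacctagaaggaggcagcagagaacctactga
Mmp10, chr9:7502092-7502391, plus strand: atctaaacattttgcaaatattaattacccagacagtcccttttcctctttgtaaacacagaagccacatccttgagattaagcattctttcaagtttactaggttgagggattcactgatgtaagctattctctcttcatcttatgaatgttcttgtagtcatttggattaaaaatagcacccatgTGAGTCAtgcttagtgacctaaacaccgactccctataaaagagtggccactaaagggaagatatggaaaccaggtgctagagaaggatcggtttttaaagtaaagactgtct
Adamts1, chr16:85803064-85803363, minus strand: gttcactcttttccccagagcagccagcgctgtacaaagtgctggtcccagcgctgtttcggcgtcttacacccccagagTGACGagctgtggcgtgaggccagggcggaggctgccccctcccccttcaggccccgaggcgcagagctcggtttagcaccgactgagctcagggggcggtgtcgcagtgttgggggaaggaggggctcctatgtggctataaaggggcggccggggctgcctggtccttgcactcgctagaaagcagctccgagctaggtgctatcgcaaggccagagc
Adamts3, chr5:89883285-89883584, minus strand: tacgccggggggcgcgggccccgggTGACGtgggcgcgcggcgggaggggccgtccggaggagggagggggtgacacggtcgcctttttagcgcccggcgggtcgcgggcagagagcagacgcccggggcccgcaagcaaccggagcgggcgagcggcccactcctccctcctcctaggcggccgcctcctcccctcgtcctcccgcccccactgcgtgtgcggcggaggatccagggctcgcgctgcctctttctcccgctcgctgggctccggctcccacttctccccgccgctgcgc
The AP-1 motif began 35, 46 and 63 bases before the start in Mmp13, Mmp3 and Mmp10. TGACG began 170 bases before the start in Adamts1 and 225 before it in Adamts3.

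Differences between groups were tested with edgeR's quasi-likelihood test over all transcripts, and a transcript was called at a Benjamini-Hochberg adjusted p under 0.05. Fold changes are given on the log2 scale ± the standard error of the fit, with 3 libraries per group. Of the members 26 passed the filter on low counts in at least 1 comparison, 25 of them in all 5. The remaining 16 were not tested. They were the 9 at the floor together with Mmp8, Mmp21, Mmp25, Adamts12, Adamts13, Adamts14 and Adamts19, whose highest count in a library ranged from 5 to 15. In all, 14 of these 26 members were called in at least 1 comparison, against 36.4% of the 20934 genes tested in any.

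The first question was which members differed between the lesioned and the unlesioned striatum 1 hour after a single dose of L-DOPA. Of 26 members tested, 4 were called, 1 higher and 3 lower on the lesioned side. Over 20402 genes tested, with 1 transcript each, 15.3% were called, 8.16% higher and 7.16% lower, so that the members' share was near that of all genes. Of the marker lists outside neurons, 3 of 7 microglia, 2 of 6 astrocyte, 2 of 6 fibroblast, 1 of 6 mural cell and 1 of 8 oligodendrocyte markers were called higher on the lesioned side and 1 of 4 tested choroid plexus markers lower. Among the neuron lists, 4 of 9 spiny neuron markers were called higher and 4 lower, and 1 of 6 cortical markers lower. The summed levels did not overlap between the sides for microglia (70.7 to 73.9 against 79.1 to 93.1 CPM), astrocytes (511 to 567 against 569 to 730 CPM) and fibroblasts (3.23 to 3.65 against 3.92 to 4.16 CPM), and the part of these cells in the members' values was not tested. The median log2 fold change of the members was 0.15, against 0.02 over all genes. Of the 4, Mmp16, Mmp17 and Mmp23 are membrane-anchored Mmp, and Adamts18 is secreted. Without acute unlesioned replicate 1 or 3, or without acute lesioned replicate 2, the count was 2 (Mmp17 and Mmp23), and the share over all genes fell to between 8.96% and 10.2%.

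Mmp23 (chr4:155024764-155027493), a membrane-tethered protease without the hemopexin domain of its relatives, rose on the lesioned side. It stood at 0.222, 0.274 and 0.202 CPM in the acute unlesioned libraries and at 0.834, 0.867 and 0.643 CPM in the acute lesioned ones (39, 38 and 27 against 110, 75 and 69 counts). All 3 lesioned libraries were above all unlesioned ones. Its log2 fold change was 1.75 ± 0.19 (edgeR adjusted p = 0.000105), and the ratio of summed counts was 3.36 (95% exact interval 2.66 to 4.26, counting error only). All 6 of its transcripts were called higher, although transcripts of a gene share reads.

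Mmp17 fell on the lesioned side after acute L-DOPA. Its level was 42.2, 42.9 and 46.8 CPM in the acute unlesioned libraries and 33.9, 35.5 and 34.3 CPM in the acute lesioned libraries. All 3 lesioned libraries were below all unlesioned ones. This gave a log2 fold change of -0.34 ± 0.060 (edgeR adjusted p = 0.0031), and all 4 transcripts of the gene were called lower.

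Mmp16 (chr4:17780605-18046292), another membrane-anchored protease, was lower on the lesioned side in both treatments. After acute L-DOPA it stood at 3.87, 3.80 and 3.85 CPM on the unlesioned and 3.33, 3.23 and 2.82 CPM on the lesioned side. After chronic L-DOPA the unlesioned libraries had 4.93, 3.87 and 4.58 CPM and the lesioned ones 3.48, 3.03 and 3.04 CPM. The sides did not overlap within either treatment, and 4 of 12 transcripts were called lower after acute and 5 of 12 after chronic L-DOPA. The log2 fold change was -0.29 ± 0.084 (edgeR adjusted p = 0.0412) after acute and -0.49 ± 0.11 (edgeR adjusted p = 0.0197) after chronic L-DOPA. The acute call was lost without any 1 of the acute unlesioned libraries or without acute lesioned replicate 2 or 3 (log2 fold change -0.31 to -0.22, edgeR adjusted p 0.0764 to 0.112), and with DESeq2 (adjusted p = 0.068). The chronic call was lost without chronic unlesioned replicate 1 or 3 or chronic lesioned replicate 2 or 3 (-0.47 to -0.41, edgeR adjusted p 0.0512 to 0.0844). Markers of cortical glutamatergic neurons were also lower on the lesioned side, with a median log2 fold change of -1.39 after acute (1 of 6 called lower) and -1.58 after chronic L-DOPA (0 of 6 called by edgeR). Within each lesioned group replicate 1 had both the highest Mmp16 level and the highest cortical sum (16.8 and 23.6 CPM), and chronic unlesioned replicate 2 had the lowest of both in its group. In that group the cortical sum was highest in replicate 3 and Mmp16 in replicate 1. In the acute unlesioned libraries the cortical sum ranged from 13.7 to 31.7 CPM, while Mmp16 stayed at 3.80 to 3.87 CPM. The part of cortical tissue in the Mmp16 values was not tested.

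Adamts18 (chr8:116221028-116372512), a secreted Adamts protease, was the 1 member called in opposite directions in the 2 comparisons between the sides. It stood at 0.165, 0.230 and 0.277 CPM in the acute unlesioned libraries and at 0.0758, 0.0463 and 0.149 CPM in the acute lesioned libraries, which are 29, 32 and 37 against 10, 4 and 16 counts. In the chronic groups it stood at 0.230, 0.142 and 0.222 CPM on the unlesioned and at 0.467, 0.361 and 0.456 CPM on the lesioned side (25, 17 and 33 against 41, 39 and 50 counts). The acute lesioned libraries were thus the lowest 2 and the fourth lowest of all 12, and the chronic lesioned libraries were the highest 3. Of its tested transcripts, 1 of 6 was called after acute and 5 of 7 after chronic L-DOPA. The log2 fold change between the sides was -1.26 ± 0.38 (edgeR adjusted p = 0.047) after acute and 1.10 ± 0.25 (edgeR adjusted p = 0.018) after chronic L-DOPA. The acute call was lost without any 1 of the acute unlesioned libraries or without acute lesioned replicate 1 or 2 (-1.45 to -1.01, edgeR adjusted p 0.055 to 0.156), and with DESeq2 (adjusted p = 0.0617). The chronic call was lost without chronic unlesioned replicate 3 or chronic lesioned replicate 1 or 3 (1.04 to 1.20, edgeR adjusted p 0.0502 to 0.07).

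**Figure D2:**
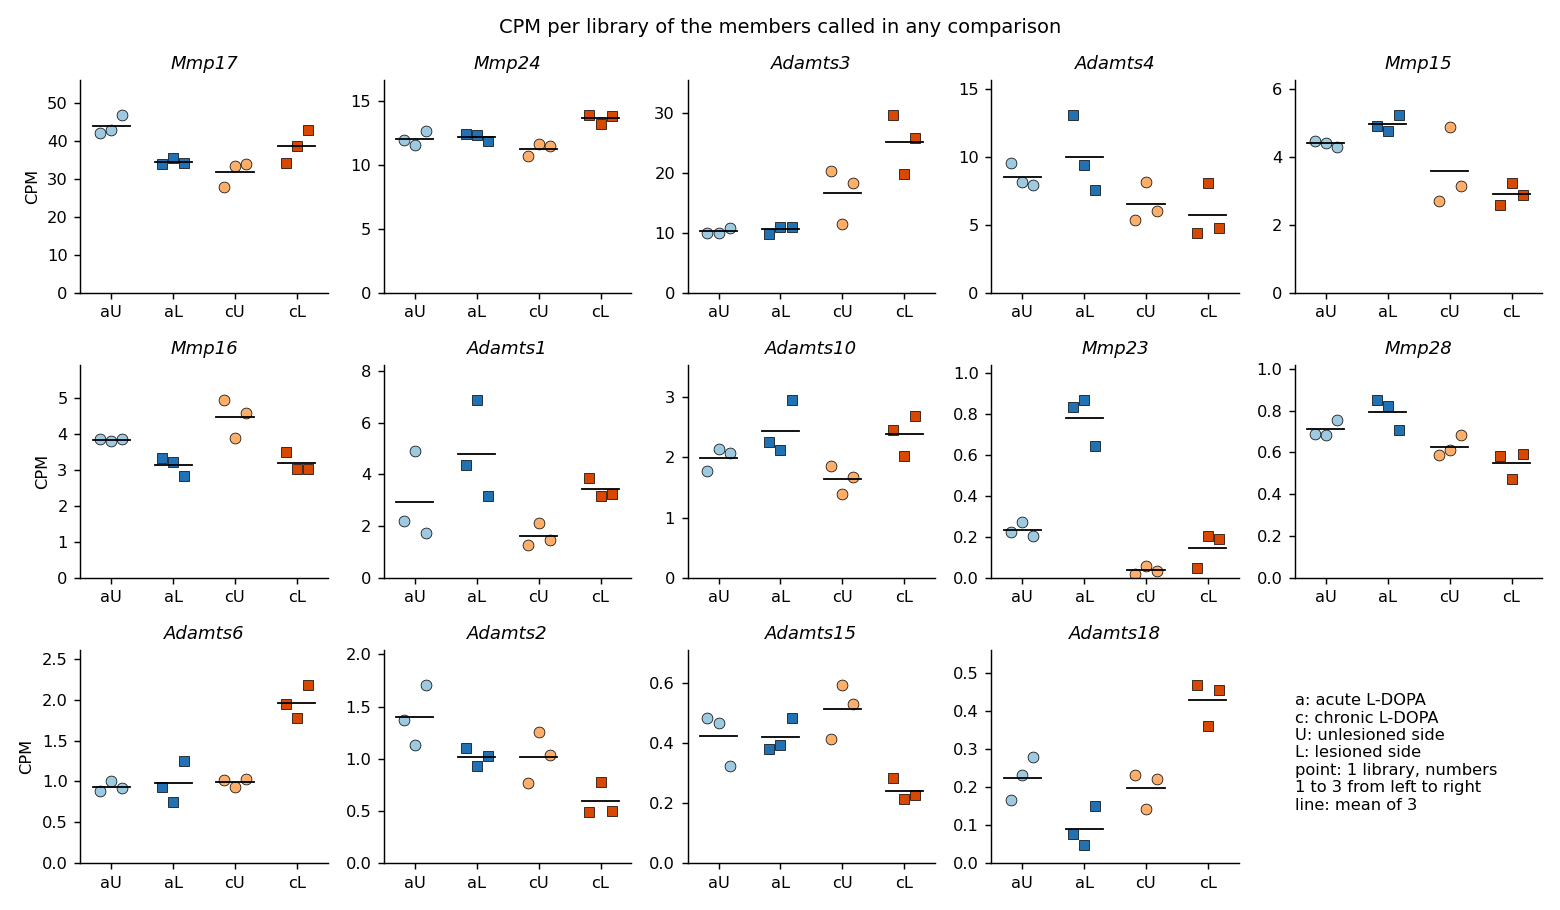
CPM per library (vertical axes from 0) of the 14 members called in any comparison, with the acute and chronic groups of the unlesioned and the lesioned side along the horizontal axis and a line at each mean of 3. The chronic lesioned libraries of Adamts6 (1.78 to 2.18 CPM) and Adamts18 (0.361 to 0.467 CPM) are above all others, and Mmp23 is highest in the acute lesioned libraries (0.643 to 0.867 CPM).

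The next question was which members differed between the sides after 9 days of L-DOPA. Of 25 members tested, 7 were called, 5 higher and 2 lower on the lesioned side. Of 19742 genes tested, 13.7% were called, 8.46% higher and 5.2% lower. The median log2 fold change of the members was -0.11, against -0.01 over all genes. Among the called members were both of the closely related Adamts6 and Adamts10, and of the 7 lectican-cleaving proteases 1 rose (Adamts1) and 1 fell (Adamts15). Of the marker lists outside neurons, 1 of 6 astrocyte and 1 of 6 fibroblast markers were called higher and 1 of 3 tested choroid plexus markers lower. Of the neuron lists, 3 of 9 spiny neuron markers were called higher and 1 lower, and no cortical marker was called. The summed levels did not overlap between the sides for astrocytes (510.1 to 599 against 607 to 637 CPM) and spiny neurons (1520 to 1681 against 1699 to 2245 CPM). The part of these cells in the members' values was not tested. Without chronic unlesioned replicate 3 or chronic lesioned replicate 3 the count was 2 (Adamts1 and Adamts6), where 8.37% and 8.41% of all genes were called.

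Adamts1 (chr16:85794072-85803360), an inducible protease that cleaves lecticans, rose on the lesioned side after chronic L-DOPA. The chronic unlesioned libraries stood at 1.25, 2.10 and 1.46 CPM and the chronic lesioned ones at 3.85, 3.17 and 3.25 CPM, with no overlap. Its log2 fold change was 1.09 ± 0.18 (edgeR adjusted p = 0.00256), and all 8 transcripts were called higher. After acute L-DOPA the values were 2.18, 4.89 and 1.73 CPM on the unlesioned and 4.37, 6.87 and 3.16 CPM on the lesioned side. The second library of both acute groups was the highest of its group, and the sides overlapped (log2 fold change 0.70 ± 0.33, edgeR adjusted p = 0.191). Without acute unlesioned replicate 2 this acute difference was called. The lesioned library was higher in each numbered acute pair, and the replicate block called the difference (0.77 ± 0.093, edgeR adjusted p = 7.34e-05). The acute numbers missed the limit for pairs given below.

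Adamts6 (chr13:105077915-105286775), a relative of Adamts10 that acts on fibrillin microfibrils, stood at 1.02, 0.926 and 1.03 CPM in the chronic unlesioned libraries and at 1.95, 1.78 and 2.18 CPM in the chronic lesioned libraries. The acute libraries had 0.889, 1.00 and 0.914 CPM on the unlesioned and 0.932, 0.752 and 1.25 CPM on the lesioned side. The chronic lesioned group was thus above each of the other 9 libraries. The lesion effect after chronic L-DOPA was a log2 fold change of 0.99 ± 0.13 (edgeR adjusted p = 0.000623), against 0.08 ± 0.16 (edgeR adjusted p = 0.794) after acute L-DOPA. All 6 tested transcripts were called higher, whereas 2 of 6 were called in the interaction given below.

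Adamts10 (chr17:33661141-33690727) showed a smaller difference. It stood at 1.86, 1.39 and 1.67 CPM in the chronic unlesioned and at 2.46, 2.03 and 2.69 CPM in the chronic lesioned libraries, which did not overlap, and 6 of its 11 transcripts were called. This gave a log2 fold change of 0.54 ± 0.15 (edgeR adjusted p = 0.0359). The call was lost without chronic unlesioned replicate 2 or 3 or chronic lesioned replicate 1 or 3 (0.44 to 0.56, edgeR adjusted p 0.0886 to 0.136) and on the sum of all its transcripts (edgeR adjusted p = 0.0592).

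Adamts15 (chr9:30706740-30730037), a lectican-cleaving protease, was lower on the lesioned side after chronic L-DOPA, at 0.285, 0.213 and 0.228 CPM against 0.414, 0.593 and 0.531 CPM. The chronic lesioned libraries were the lowest 3 of all 12. The log2 fold change was -1.09 ± 0.23 (edgeR adjusted p = 0.0116). The call was lost without chronic unlesioned replicate 3 or chronic lesioned replicate 3 (-1.07 and -1.05, edgeR adjusted p 0.0508 and 0.0554). Its neighbour Adamts8 (chr9:30750148-30770443), of the same class, had 0.0504 to 0.234 CPM over all libraries and was called in no comparison.

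Mmp24 stood at 10.7, 11.6 and 11.5 CPM in the chronic unlesioned and at 13.9, 13.2 and 13.8 CPM in the chronic lesioned libraries. These groups did not overlap, the chronic lesioned libraries were the highest 3 of all 12, and 3 of 4 transcripts were called. Its log2 fold change was 0.28 ± 0.075 (edgeR adjusted p = 0.0373). The call was lost without any 1 of the chronic unlesioned libraries or without chronic lesioned replicate 1 or 3 (0.24 to 0.30, edgeR adjusted p 0.0588 to 0.146). The last 633 bases of the gene's span overlap BC029722 on the opposite strand (mean 9.90 CPM), and the strand setting of the counting is not given in the sources used here. BC029722 itself was not called between the sides after chronic L-DOPA (log2 fold change -0.09 ± 0.081, edgeR adjusted p = 0.523).

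Same-numbered chronic libraries correlated at 0.33, 0.414 and 0.15 in their deviations from the group means. Unlesioned replicate 3 with lesioned replicate 1 reached 0.124, so the numbers are uncertain as pairs. With the replicate number as a block, 24.2% of genes and 10 members were called after chronic L-DOPA. The 3 added members were Mmp17 (log2 fold change 0.28 ± 0.060, edgeR adjusted p = 0.00575), Adamts3 (0.61 ± 0.071, edgeR adjusted p = 9.34e-05) and Adamts2 (-0.80 ± 0.15, edgeR adjusted p = 0.00306). Without the block edgeR gave them adjusted p of 0.123, 0.0832 and 0.0544. Mmp17 stood at 27.8, 33.3 and 34.1 CPM in the chronic unlesioned and 34.2, 38.7 and 43.0 CPM in the chronic lesioned libraries, so that the lesioned library was higher in each of the 3 numbered pairs.

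**Figure D3:**
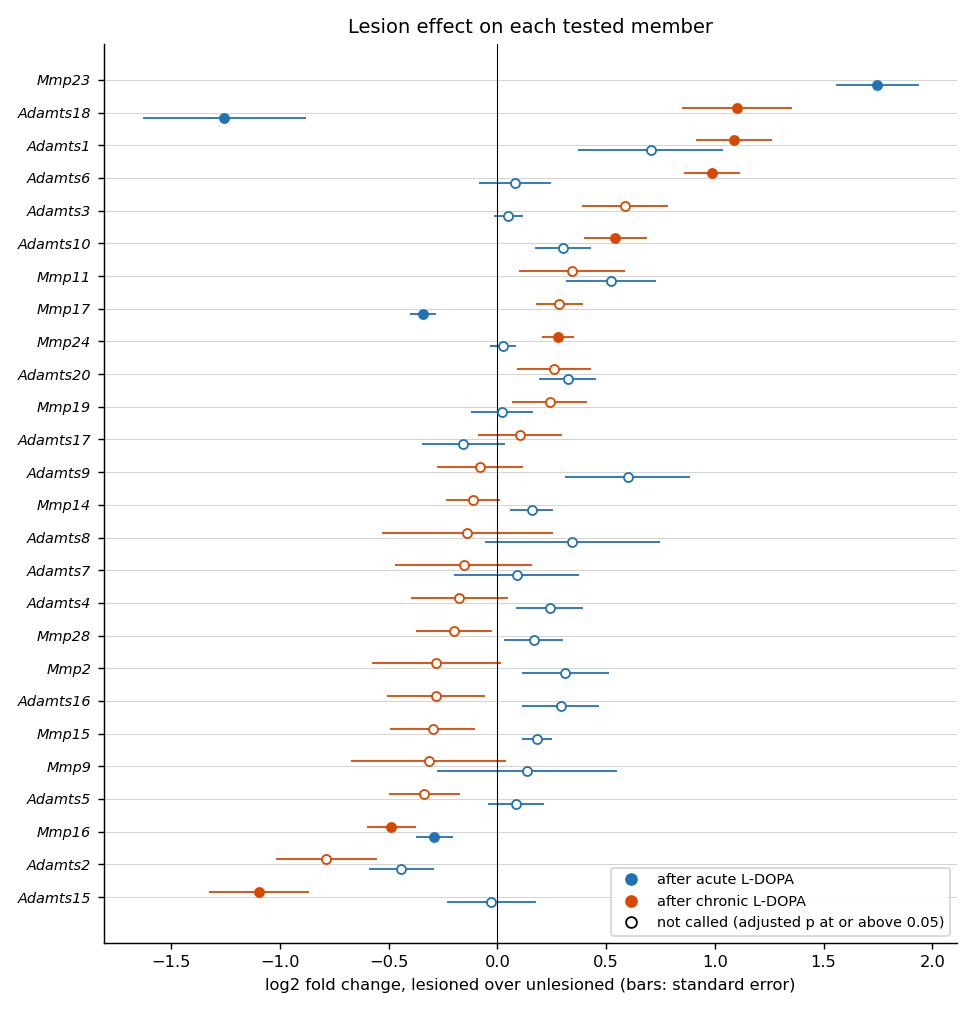
Log2 fold change of lesioned over unlesioned striatum (points, with standard errors as bars) for the 26 members tested after acute and the 25 tested after chronic L-DOPA, with open points for members that were not called. Adamts18 is called at -1.26 after acute and at 1.10 after chronic L-DOPA, and Mmp16 is called lower in both.

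Whether the lesion effect differed between acute and chronic L-DOPA was tested as an interaction over all 12 libraries. Of 26 members tested, 3 were called, all with a higher effect after chronic L-DOPA. Of 20682 genes, 5.1% were called, 3.53% with a higher and 1.56% with a lower effect. The difference of the log2 fold changes was 2.36 ± 0.46 (edgeR adjusted p = 0.00781) for Adamts18, with all 7 tested transcripts called. It was 0.63 ± 0.13 (edgeR adjusted p = 0.0102) for Mmp17, which was lower on the lesioned side after acute L-DOPA and had the opposite sign after chronic L-DOPA, where it was called with the replicate block (edgeR adjusted p = 0.00575) and not without it. Between the lesioned groups Mmp17 was not called (0.16 ± 0.089, edgeR adjusted p = 0.215). Between the unlesioned groups it was called lower after chronic L-DOPA (-0.47 ± 0.086, edgeR adjusted p = 0.024). The difference of the lesion effects was 0.91 ± 0.21 (edgeR adjusted p = 0.0247) for Adamts6. The calls of Adamts18 and Mmp17 were made without any 1 of the 12 libraries (2.11 to 2.89 and 0.54 to 0.71). That of Adamts6 was lost on leaving out acute unlesioned replicate 2 or 3, acute lesioned replicate 1 or 2, chronic unlesioned replicate 2 or chronic lesioned replicate 1 or 3 (0.77 to 0.93, edgeR adjusted p 0.0507 to 0.0717).

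Within the lesioned striatum, 9 days of L-DOPA were compared with a single dose. These 2 groups are those compared with the unlesioned side above, so the comparisons share libraries. Number of doses and time since the lesion differ together between the acute and chronic groups on either side, so they cannot be told apart. Of 26 members tested, 9 were called, 3 higher and 6 lower after chronic L-DOPA. Of 19790 genes, 25.6% were called, 12.5% higher and 13.1% lower. The median log2 fold change of the members was -0.15, against -0.02 over all genes. Without acute lesioned replicate 1 or chronic lesioned replicate 3 the count was 5 (Adamts3, Adamts6, Adamts18, Mmp15 and Mmp23), where 15.9% and 17.7% of all genes were called.

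The 3 members called higher in the chronic than in the acute lesioned striatum were Adamts proteases. Adamts18 had a log2 fold change of 2.20 ± 0.34 (edgeR adjusted p = 0.00148) and Adamts6 one of 1.00 ± 0.17 (edgeR adjusted p = 0.00251). Adamts3, which besides procollagen also processes reelin and a lymphatic growth factor, stood at 9.88, 11.0 and 11.0 CPM in the acute lesioned and at 29.7, 19.9 and 25.9 CPM in the chronic lesioned libraries. All chronic lesioned libraries were above all acute ones. This gave a log2 fold change of 1.24 ± 0.13 (edgeR adjusted p = 0.000105), and all 5 transcripts were called higher. In both chronic groups the second library had the lowest Adamts3 level, which was 11.5 CPM on the unlesioned side.

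Mmp23 was lower after chronic than after acute L-DOPA on both sides. The chronic lesioned libraries stood at 0.0456, 0.203 and 0.191 CPM (4, 22 and 21 counts), below the acute lesioned range, with a log2 fold change of -2.35 ± 0.33 (edgeR adjusted p = 0.00082). The chronic unlesioned libraries had 0.0184, 0.0584 and 0.0336 CPM (2, 7 and 5 counts). Against the acute unlesioned libraries the log2 fold change was -2.62 ± 0.37 (edgeR adjusted p = 0.0116), and the ratio of summed counts was 0.160 (95% exact interval 0.0845 to 0.280). Here Mmp23 passed the filter on low counts only through the acute unlesioned libraries, where it was high. The unlesioned call was lost without acute unlesioned replicate 1 or 2 or chronic unlesioned replicate 3 (-2.65 to -2.49, edgeR adjusted p 0.0536 to 0.0715), and DESeq2 gave no adjusted p for it. In the chronic comparison of the sides Mmp23 did not pass the filter. There the summed counts were 47 against 14, a ratio of 4.14 (95% exact interval 2.24 to 8.15, counting error only).

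Of the lectican-cleaving proteases, Adamts4 and Adamts15 were called lower in the chronic lesioned striatum, and of the membrane-anchored ones, Mmp15 and Mmp23. Adamts4 stood at 13.0, 9.40 and 7.57 CPM in the acute lesioned and at 4.40, 8.07 and 4.76 CPM in the chronic lesioned libraries. Chronic lesioned replicate 2 was above acute lesioned replicate 3, so the groups overlapped, while 7 of 8 transcripts were called. The log2 fold change was -0.80 ± 0.23 (edgeR adjusted p = 0.0282), and the call was lost without acute lesioned replicate 1 or 2 or chronic lesioned replicate 1 or 3 (-0.84 to -0.56, edgeR adjusted p 0.068 to 0.121) and with DESeq2 (adjusted p = 0.1). Mmp15 stood at 4.90, 4.76 and 5.22 CPM against 2.57, 3.23 and 2.88 CPM, without overlap. Its log2 fold change was -0.77 ± 0.10 (edgeR adjusted p = 0.000562), and all 5 transcripts were called lower. In the unlesioned libraries Mmp15 stood at 4.47, 4.41 and 4.28 CPM after acute and at 2.69, 4.88 and 3.12 CPM after chronic L-DOPA, and Adamts4 at 9.51, 8.14 and 7.89 CPM and at 5.35, 8.14 and 6.01 CPM. In both genes chronic unlesioned replicate 2 was the highest of its group.

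Mmp28 (chr11:83254270-83276524), a secreted protease known as epilysin, stood at 0.849, 0.821 and 0.708 CPM in the acute lesioned and at 0.581, 0.472 and 0.592 CPM in the chronic lesioned libraries. These did not overlap, and 1 of 5 tested transcripts was called. This gave a log2 fold change of -0.53 ± 0.17 (edgeR adjusted p = 0.0423), and the call was lost without acute lesioned replicate 1 or 2 or any 1 of the chronic lesioned libraries (-0.60 to -0.43, edgeR adjusted p 0.0659 to 0.144) and with DESeq2 (adjusted p = 0.117). Adamts2 (chr11:50415586-50621075), the main procollagen N-propeptidase, stood at 1.11, 0.925 and 1.02 CPM against 0.490, 0.777 and 0.501 CPM. All chronic lesioned libraries were below all acute lesioned ones. The log2 fold change was -0.79 ± 0.19 (edgeR adjusted p = 0.0145), and the call was lost without acute lesioned replicate 1 or chronic lesioned replicate 1 or 3 (-0.72 to -0.68, edgeR adjusted p 0.0563 to 0.0625). Adamts15 stood at 0.379, 0.393 and 0.484 CPM in the acute lesioned libraries, above its chronic lesioned range. Its log2 fold change was -0.80 ± 0.23 (edgeR adjusted p = 0.0289), and the call was lost without any 1 of the acute lesioned libraries or without chronic lesioned replicate 2 or 3 (-0.87 to -0.68, edgeR adjusted p 0.0546 to 0.0981) and with DESeq2 (adjusted p = 0.0858).

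The levels of oligodendrocyte markers were examined beside these falls. All 8 oligodendrocyte markers were called lower in the chronic than in the acute lesioned striatum (log2 fold change -0.90 to -0.67), and none of them was at the floor in any library. Their summed level was 2189 to 3621 CPM in the acute lesioned, 1209 to 2180 CPM in the chronic lesioned, 2161 to 2414 CPM in the acute unlesioned and 1627 to 2319 CPM in the chronic unlesioned libraries. The highest chronic values, 2319 and 2180 CPM, were those of replicate 2 on either side. In chronic lesioned replicate 2, Adamts4, Mmp15 and Adamts2 were the highest of their group and Mmp28 and Adamts15 the lowest. In the acute lesioned group Adamts4 and Mmp28 followed the order of the markers. Mmp15 and Adamts15 were highest there in replicate 3 (5.22 and 0.484 CPM), where the markers were lowest (2189 CPM). Of the other lists, 5 of 7 microglia markers, 4 of 6 mural cell markers, 3 of 6 astrocyte markers and 2 of 4 markers of oligodendrocyte precursors were also called lower in this comparison, as were 2 of 3 tested blood markers and 1 of 6 fibroblast markers. Other lists moved otherwise, with 2 of 4 tested choroid plexus markers and 1 of 6 endothelial markers called higher, 2 of 9 spiny neuron markers higher and 2 lower, and no cortical marker called. The part of these cells in the values of Adamts4, Mmp15, Mmp28, Adamts2 and Adamts15 was not tested. In bulk tissue, fewer cells of a type and less RNA per cell cannot be told apart.

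**Figure D4:**
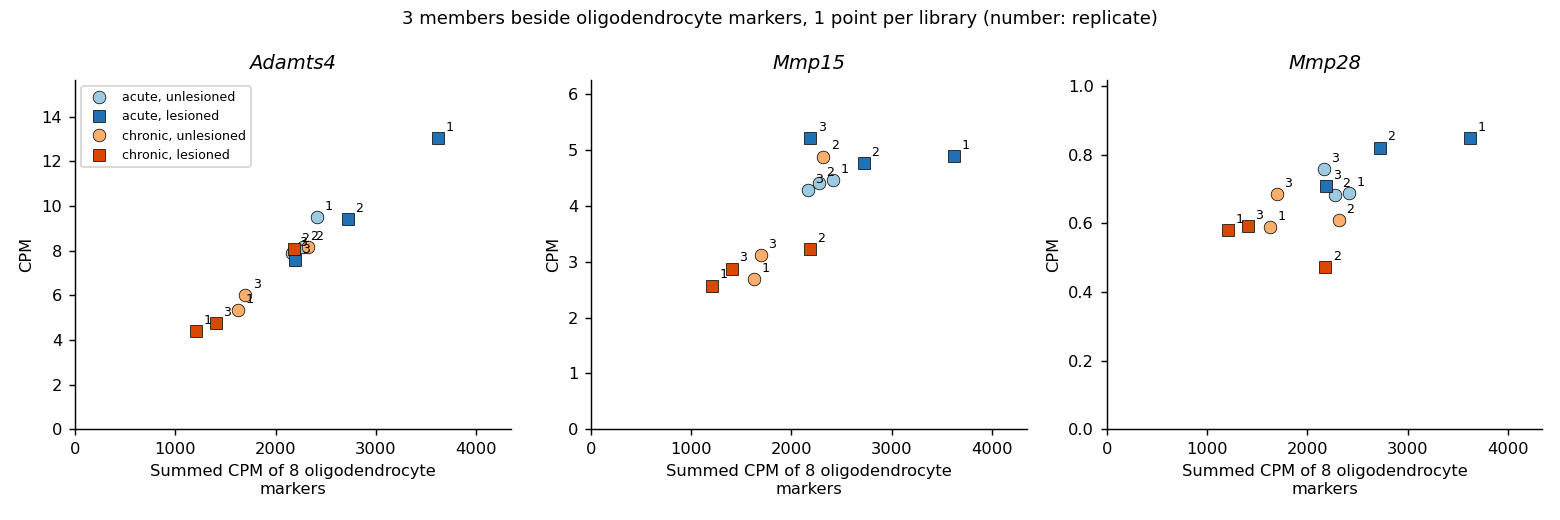
CPM of Adamts4, Mmp15 and Mmp28 (vertical axes) against the summed CPM of 8 oligodendrocyte markers (horizontal axis), 1 point per library with its replicate number. The 3 chronic lesioned libraries reach from 1209 to 2180 CPM of markers, and replicate 2, with the highest marker level, has the highest Adamts4 and Mmp15 but the lowest Mmp28 of that group.

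The unlesioned striatum after chronic and acute L-DOPA formed the last comparison, and its libraries are the controls of the comparisons between the sides. Of 26 members tested, 3 were called, 1 higher and 2 lower after chronic L-DOPA. Of 20290 genes, 3.07% were called, 1.07% higher and 1.99% lower. Mmp17 fell from 42.2 to 46.8 CPM in the acute to 27.8 to 34.1 CPM in the chronic unlesioned libraries, with no overlap and a log2 fold change of -0.47 ± 0.086 (edgeR adjusted p = 0.024). Adamts3 rose from 9.96, 10.0 and 10.8 CPM to 20.3, 11.5 and 18.4 CPM, also without overlap, with a log2 fold change of 0.70 ± 0.16 (edgeR adjusted p = 0.045). Mmp23 is given above. Of the marker lists, 3 of 7 microglia, 2 of 6 astrocyte, 1 of 6 mural cell, 1 of 4 oligodendrocyte precursor and 1 of 9 spiny neuron markers were called lower here, and 1 of 4 tested choroid plexus and 1 of 6 endothelial markers higher. Their part in the values of the 3 members was not tested. The calls of Mmp17 and Adamts3 were both lost without any 1 of the acute unlesioned libraries or without chronic unlesioned replicate 1 or 3 (-0.52 to -0.38, edgeR adjusted p 0.0533 to 0.104 for Mmp17, and 0.55 to 0.74, 0.116 to 0.179 for Adamts3). Without chronic unlesioned replicate 2, the library with choroid plexus markers, 8 members and 12.1% of all genes were called. The count was 0 in edgeR without acute unlesioned replicate 1 or 2 or chronic unlesioned replicate 3 (5, 5 and 3 members at an unadjusted p under 0.05) and 1 without acute unlesioned replicate 3 or chronic unlesioned replicate 1. Over all genes the share was 0.0679% to 0.766% without any of these 5 libraries, so the members' counts moved with those of all genes. On all 6 libraries DESeq2 called 1 member, Mmp17, and gave Adamts3 an adjusted p of 0.0563.

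The other 12 tested members were called in none of the 5 comparisons as fitted above. Among the lectican-cleaving proteases these were Adamts5 (0.615 to 0.968 CPM over the 12 libraries), Adamts8, Adamts9 (0.307 to 0.983 CPM) and Adamts20 (1.12 to 1.98 CPM). Adamts5 is the close partner of Adamts1 on chromosome 16 (chr16:85858402-85901370), and its lesion effect after chronic L-DOPA was a log2 fold change of -0.34 ± 0.17 (edgeR adjusted p = 0.234), where that of Adamts1 was 1.09. Mmp14 (1.85 to 2.53 CPM), the membrane-anchored activator of Mmp2, had log2 fold changes between -0.27 and 0.24 in the 5 comparisons. The remaining ones were Mmp2, Mmp9, Mmp11 (0.240 to 0.466 CPM), Mmp19 (0.507 to 0.693 CPM), Adamts7 (0.119 to 0.289 CPM), Adamts16 (0.367 to 0.774 CPM) and Adamts17 (0.410 to 0.620 CPM). Mmp19 and Adamts7 share part of their span with genes on the opposite strand of higher level, 1110012D08Rik (1.91 CPM) and Tbc1d2b (6.30 CPM). On the sum over its transcripts Adamts7 was called higher on the acute lesioned side (log2 fold change 1.44 ± 0.39, edgeR adjusted p = 0.0487), where its top transcript gave 0.09 ± 0.29. Mmp14 was among the 8 members called between the unlesioned groups without chronic unlesioned replicate 2 (log2 fold change 0.34 ± 0.10, edgeR adjusted p = 0.0495).

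The inhibitors, activators and substrates of these proteases were followed in a list of 46 genes. Between the sides after acute L-DOPA, 9 of 43 tested genes were called (8 higher and 1 lower), against 15.3% of all genes. After chronic L-DOPA 8 of 44 were called, all higher, against 13.7% of all genes. Between the lesioned groups 16 of 44 were called (7 higher and 9 lower), against 25.6%. The unlesioned groups differed in 3 of 43 (1 higher and 2 lower), against 3.07%, and the interaction called 3 of 44, all higher, against 5.1%. In the same order the list's median log2 fold changes were 0.20, 0.01, -0.11, 0.04 and -0.13, and those over all genes 0.02, -0.01, -0.02, -0.0043 and -0.03.

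Timp2, an inhibitor that also takes part in the activation of Mmp2, stood at 62.6, 64.0 and 62.3 CPM in the acute unlesioned, 72.9, 77.9 and 83.8 CPM in the acute lesioned, 84.7, 76.9 and 73.6 CPM in the chronic unlesioned and 189, 168 and 178 CPM in the chronic lesioned libraries. The chronic lesioned libraries were above all others. The lesion effect was a log2 fold change of 0.32 ± 0.064 (edgeR adjusted p = 0.0072) after acute and of 1.19 ± 0.086 (edgeR adjusted p = 9.23e-06) after chronic L-DOPA, with a difference of 0.87 ± 0.10 (edgeR adjusted p = 0.000136). Timp1, an inducible inhibitor, had at most 6 counts in every library but the chronic lesioned ones, where it had 39, 84 and 41 counts. In the chronic comparison its summed counts were 164 against 5, a ratio of 40.5 (95% exact interval 17.0 to 126, counting error only, edgeR adjusted p = 5.47e-05). It passed the filter on low counts only through the chronic lesioned libraries, where it was high, so its calls rest on that group. Timp3 (log2 fold change 0.26 ± 0.060, edgeR adjusted p = 0.0163) and A2m (1.98 ± 0.30, edgeR adjusted p = 0.00132), a plasma protease inhibitor, were higher on the lesioned side after acute L-DOPA.

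Of the activators, Furin, which cuts the prodomain of membrane-anchored Mmp and of Adamts proteases, was higher in the chronic lesioned libraries at 10.0, 8.48 and 9.41 CPM than in the chronic unlesioned ones at 5.43, 6.24 and 5.91 CPM. Each of the 9 libraries outside the chronic lesioned group had at most 6.24 CPM. The chronic log2 fold change was 0.67 ± 0.094 (edgeR adjusted p = 0.00111) and its difference from the acute one 0.71 ± 0.12 (edgeR adjusted p = 0.00366). Plat, the tissue plasminogen activator, was higher on the lesioned side after both treatments, with log2 fold changes of 0.90 ± 0.10 (edgeR adjusted p = 0.000148) and 0.88 ± 0.10 (edgeR adjusted p = 0.000257). Among the sheddases related to Adamts, Adam17 was higher on the acute lesioned side (0.42 ± 0.081, edgeR adjusted p = 0.00587), and Adam8 (1.18 ± 0.33, edgeR adjusted p = 0.0424) and Adam19 (0.55 ± 0.16, edgeR adjusted p = 0.049) on the chronic lesioned side. Of the protease-free Adamts-like proteins, Adamtsl4 was higher after acute L-DOPA (0.45 ± 0.12, edgeR adjusted p = 0.0239), and Adamtsl3 (1.29 ± 0.28, edgeR adjusted p = 0.0131) and Adamtsl2 (0.81 ± 0.23, edgeR adjusted p = 0.0478) after chronic L-DOPA.

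Among 16 substrates, 3 were called after acute L-DOPA. After chronic L-DOPA edgeR without the replicate block called 0, with 4 at an unadjusted p under 0.05. Ncan, which encodes the lectican neurocan, stood at 31.3, 30.5 and 34.2 CPM in the acute unlesioned and at 24.7, 23.6 and 24.1 CPM in the acute lesioned libraries. In the chronic groups it stood at 25.5, 28.9 and 34.6 CPM and at 33.9, 36.0 and 39.7 CPM, the lesioned library being higher in each numbered pair. The acute lesioned libraries were the lowest 3 of all 12. The acute log2 fold change was -0.40 ± 0.061 (edgeR adjusted p = 0.00123), and the interaction 0.71 ± 0.14 (edgeR adjusted p = 0.00702). Hapln2, a link protein of myelinated axons (0.32 ± 0.076, edgeR adjusted p = 0.0182), and Thbs1, a matrix glycoprotein (1.51 ± 0.46, edgeR adjusted p = 0.049), were higher on the acute lesioned side.

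**Figure D5:**
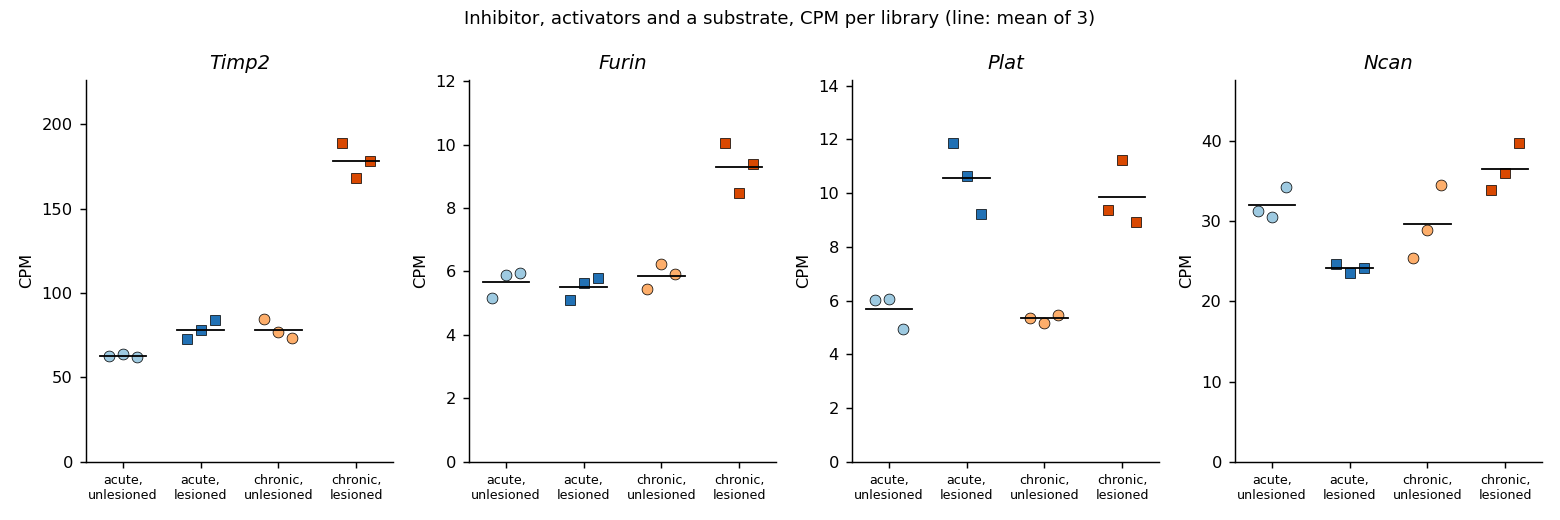
CPM per library (vertical axes from 0, line at the mean of 3) of the inhibitor Timp2, the activators Furin and Plat and the substrate Ncan in the 4 groups. Timp2 reaches 168 to 189 CPM in the chronic lesioned libraries, and Plat is higher on the lesioned side after both treatments.

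Between the lesioned groups, the 10 called genes of the list with the largest fold changes included 4 that were higher after chronic L-DOPA: Timp1 (164 against 14 summed counts), Timp2 (log2 fold change 1.19), Adamtsl2 (1.18) and Furin (0.76). The 6 that fell were Klk6 (-1.32), a protease of oligodendrocytes, Adamtsl4 (-1.26), Adamtsl1 (-0.89), Adam17 (-0.77), Adam8, which fell by 1.00, and Mbp (-0.85), the myelin basic protein that is also 1 of the 8 oligodendrocyte markers. Between the unlesioned groups Timp2 rose (0.32), and Hapln2 (-0.37) and Adam8 (-1.68) fell.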

How the data were processed

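RNA-seq reads of 12 striatal libraries had been mapped to mm9 and counted per transcript by the authors, and the deposited table holds these raw counts, in which 1 read adds to each transcript that it touches. A normalized signal per transcript, scaled by length and library size by the authors, served no test here. DESeq and mm9 are named in the submitters' processing notes. Strand and multiple-mapping settings are not given in the sources used here. The tables of the authors' own comparisons (p-values and fold changes), with 36 per-sample columns, were not used. The 296 transcripts naming no gene (0.0485% of counts) were left out.

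Counts were tested with edgeR 4.0.16 (limma 3.58.1, R 4.3.3): filterByExpr by group, TMM scaling and the two-sided quasi-likelihood test, with only the groups compared in each fit and all 12 libraries for the interaction. Benjamini-Hochberg adjustment covered all transcripts tested, and shares of genes called are over the top transcript of each gene. The standard error is the absolute log2 fold change divided by the square root of the F statistic. With 3 libraries per group an exact permutation test cannot go below 0.1. DESeq2 1.42.0 was an alternative, beside other scalings, filters, transcript choices and leaving out each library. Python 3.11.15, pandas 2.3.3, numpy 2.4.6 and matplotlib 3.10.9 were used for summaries and plots. The test was also run on simulated counts, and no result above rests on that run. Ratios of summed counts have 95% exact intervals, which cover counting error only.

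The members and lists were chosen with earlier results of these data known. Values in every library are given for called members and the 5 with the highest level per kilobase, and at most 10 called genes of the list of 46 are named per comparison. The replicate numbers were taken to pair the sides where deviations from the group means correlated above 0.1 in all 3 pairs over 19933 genes. This held for the chronic libraries (0.33, 0.414 and 0.15) and not for the acute ones (0.299, 0.274 and 0.083). Chronic unlesioned replicate 3 and lesioned replicate 1, which share no number, also passed the limit (0.124), so it does not settle the pairing.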

Additional observations from a re-analysis of the deposited data

Results flagged for a closer look

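In 3 members the lesion effect differed between the treatments by the interaction test (edgeR). The difference of the log2 fold changes, chronic minus acute, was 2.36 for Adamts18, 0.91 for Adamts6 and 0.63 for Mmp17. For Adamts18 the effect was -1.26 after acute and 1.10 after chronic L-DOPA. For Mmp17 it was -0.34 and 0.28, the second being called with the replicate block (edgeR adjusted p = 0.00575) and not without it. The unlesioned level of Mmp17 was called lower after chronic L-DOPA (log2 fold change -0.47), and its lesioned level was not called between the treatments (0.16). For Adamts6 the lesion effect was 0.08 and 0.99.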

How the results depend on the processing

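Of the 26 calls of a member in a comparison, 9 were made under every alternative, 1 (Adamts18 in the interaction) under every alternative that gave an adjusted p, which DESeq2 did not, and 16 were lost under at least 1. Of the 417 alternative values for these calls, 312 passed the threshold, 105 did not and 0 had the opposite sign. Shares in parentheses are those of all genes called under the same setting. After acute L-DOPA, 4 members were called, against 2 with DESeq2 (13.4%), 2 at an adjusted p under 0.01 (6.51%) and 2 to 4 on leaving out 1 library (8.96% to 13.8%). In alternatives chosen after seeing the data, 3 were called on 1 transcript per gene with known GC content (17.8%), and 2 when the trend over GC content and length was removed from that fit (21.6%). After chronic L-DOPA, 7 were called, against 11 in a fit over all 12 libraries (19.2%), 2 at an adjusted p under 0.01 (6.64%) and 2 to 8 on leaving out 1 library (8.37% to 13.1%). Between the lesioned groups, 9 were called, against 5 at an adjusted p under 0.01 (11.4%) and 5 to 9 on leaving out 1 library (14.0% to 31.0%). Between the unlesioned groups, 3 were called by edgeR (8 at an unadjusted p under 0.05), against 1 with DESeq2 (5 unadjusted), where the share of all genes rose from 3.07% to 5.70%. It was 1 on the sum over transcripts (0.470%), 0 at an adjusted p under 0.01 in edgeR (0.113%) and 0 to 8 on leaving out 1 library (0.0679% to 12.1%). In the interaction, 3 were called, against 1 at an adjusted p under 0.01 (2.23%) and 2 to 4 on leaving out 1 library (3.27% to 7.84%). The cause of these changes was not tested.

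With the replicate block, 7 members were called after acute L-DOPA (25.1% of all genes), 10 after chronic L-DOPA (24.2%) and 5 in the interaction (13.4%). Added were Adamts1 (log2 fold change 0.77 ± 0.093, edgeR adjusted p = 7.34e-05), Adamts2 and Adamts9 after acute L-DOPA, and Adamts3 and Mmp15 in the interaction. Whether the acute numbers mark pairs is not known, since 1 pair correlated below the limit.

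Without the filter on low counts, Mmp23 (log2 fold change 1.98 ± 0.57, edgeR adjusted p = 0.042) and Adamts13 (-3.54 ± 1.03, edgeR adjusted p = 0.0441) were called after chronic L-DOPA, and Mmp25 (2.03 ± 0.63, edgeR adjusted p = 0.0328) between the lesioned groups. On the sum over transcripts Adamts13 (-3.75 ± 0.85, edgeR adjusted p = 0.0275) and Mmp25 (2.06 ± 0.56, edgeR adjusted p = 0.0351) were called in the same comparisons, and Adamts7 (1.44 ± 0.39, edgeR adjusted p = 0.0487) after acute L-DOPA. The top transcripts of Adamts13 and Mmp25 had at most 11 and 15 counts per library. In members at 0, absence and low depth cannot be told apart.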
